A study of Mus musculus with 44 samples.

Results

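The 9 genes described here make, carry, sense or break down retinoic acid, or are named for their response to it. They are the retinaldehyde dehydrogenases Aldh1a1, Aldh1a2 and Aldh1a3, the retinoid carriers Rbp4, Crabp1 and Crabp2, the retinoic acid receptor gene Rarb, the chemerin gene Rarres2 and the retinoic acid hydroxylase gene Cyp26b1. They were taken by symbol from the table of gene counts, and are 9 of its 55486 genes. Each was followed in mammary fibroblasts sorted by CD26, the surface peptidase encoded by Dpp4, from mice with control tissue (normal fibroblasts, NFs) and from mice with mammary tumors (cancer-associated fibroblasts, CAFs).

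All recipients were female En1-Cre;mTmG mice, in which cells with a history of En1 expression carry GFP and all other host cells carry tdTomato. Control recipients had received control mammary tissue, and their labels read wildtype without a further genotype. WB1P recipients had received tissue in which Cre, driven by the Wap promoter of mammary epithelium, deletes Brca1 and Trp53, and WB1P-Myc tissue also carried a Cre-inducible Myc transgene at the Col1a1 locus. Host fibroblasts carry none of these donor alleles by design. The fibroblasts were isolated as EpCAM-/CD49f-/CD31-/CD45- cells and divided by CD26 and GFP into En1+ (GFP only), double- (neither), CD26+ (CD26 only) and double+ (both) populations. No gate on tdTomato is described for this sort. The paper reports tdTomato-negative cells without epithelial markers in its transplanted tumors. Donor cells that lack the surface markers and GFP were therefore not excluded by the gates described. There were 44 libraries from 13 mice, namely 12 libraries of 3 control mice, 16 of 5 WB1P mice and 16 of 5 WB1P-Myc mice. The control labels carry a pair of numbers each, which may stand for pooled animals, and each was counted as 1 mouse. Replicates 12 and 13 of WB1P-Myc are marked 8x8 with no unit. The study staged its tumors by their dimensions, so that these mice may differ from the others in tumor stage, which the labels do not state. For each mouse, the libraries with and without GFP were added up within a CD26 class, yielding 3 sums for each class of NFs, 5 and 4 for CD26- and CD26+ WB1P CAFs, and 5 and 5 for WB1P-Myc CAFs. Some of these sums are a single library and hold only cells with or only cells without GFP. They are WB1P replicates 4 (CD26-) and 6 (CD26+) and WB1P-Myc replicates 9 (CD26-), 10 (CD26+) and 11 (both classes).

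Retinol circulates bound to RBP4 and is oxidized to retinaldehyde inside cells, which the ALDH1A enzymes turn into retinoic acid. CRABP1 and CRABP2 bind retinoic acid in the cytosol, nuclear receptors such as RARβ regulate transcription when they bind it, and enzymes of the CYP26 family inactivate it. Fibroblasts can supply retinoic acid to neighboring cells, and different ALDH1A genes are used in different tissues.

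Libraries held 5790599 to 15240328 counts (median 12818093), and all 9 genes passed the low-count filter that left 16601 genes for testing. The level of a gene in a mouse is its CPM, the count relative to the TMM-scaled library total. A gene was called where the adjusted p-value of edgeR's quasi-likelihood test was under 0.05, with p-values adjusted by the Benjamini-Hochberg method across the whole table, and genes that also passed the study's limit of an absolute log2 fold change over 2 are counted separately. Dpp4 followed the sort, with 4.87 ± 2.75 CPM in CD26- NFs and 526.5 ± 270.3 CPM in CD26+ NFs (SD, n = 3 each), and with log2 fold changes of 6.75 in NFs and 6.05 in CAFs. The fibroblast markers (Pdgfra, Pdgfrb, Col1a1, Col1a2, Col3a1, Dcn, Lum and Thy1) summed to between 32231 and 90736 CPM in all 25 sums. Fewer cells of a type and less RNA per cell cannot be told apart in such bulk samples.

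A promoter window of Rarb is shown first, since a retinoic acid response element is a pair of hexamers that the receptor reads as letters. Windows from 250 bases before to 50 after the annotated start (RefSeq, GRCm38.p6) were given for 6 of the 9 genes and searched on both strands. The search was for direct repeats of AGGTCA or AGTTCA or GGGTCA or GGTTCA with a spacer of 5, 2 or 1 bases. A repeat with spacer 5 was in 32 of 32851 promoter windows of the genome (0.0974%). Among the 9 genes it was in the window of Rarb alone, and among 36 other genes of the pathway described further on that had a window it was in that of Cyp26a1 alone, a retinoic acid hydroxylase like Cyp26b1. Spacer 1 was in 0.222% of windows and in that of Bco1, and spacer 2 was in 0.268% of windows and in none of these windows. The stretches below run 5′ to 3′ along each gene, with the hexamers in capitals. They lie in the windows chr14:16575427-16575726 (Rarb, minus strand, hexamers at -53 to -37 from the start) and chr19:37697558-37697857 (Cyp26a1, plus strand, -32 to -16, where the repeat is read on the opposite strand). The Rarb window lies inside the span of the gene (16430839 to 16819156), not at its 5′ end at 16819156. It is thus the window of an internal annotated start, whereas the counts are those of the whole gene.
Rarb: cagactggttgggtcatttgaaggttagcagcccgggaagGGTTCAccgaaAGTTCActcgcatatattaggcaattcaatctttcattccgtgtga
Cyp26a1: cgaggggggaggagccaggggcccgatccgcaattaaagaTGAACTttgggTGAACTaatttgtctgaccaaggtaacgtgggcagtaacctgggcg
A match describes the letters and does not show that a receptor was bound.

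Each enzyme that makes retinoic acid led in other cells. Aldh1a1 was the leading Aldh1a transcript per length in CD26- NFs, Aldh1a2 in CD26- CAFs, and Aldh1a3 in CD26+ cells of either origin. The 3 genes lie on different chromosomes (GRCm38): Aldh1a1 (ENSMUSG00000053279) at chromosome 19, 20492715 to 20643465, Aldh1a2 (ENSMUSG00000013584) at chromosome 9, 71215789 to 71296243, and Aldh1a3 (ENSMUSG00000015134) at chromosome 7, 66390890 to 66427517.

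Aldh1a1 had 69.3, 62.3 and 78.4 CPM in the CD26- NFs of the 3 control mice and 26.9, 24.4 and 49.8 CPM in their CD26+ NFs. The CD26- CAFs had 2.09, 2.64, 0.933, 5.13 and 3.55 CPM in WB1P mice and 1.55, 5.71, 6.93, 6.07 and 6.58 CPM in WB1P-Myc mice. Their CD26+ counterparts had 9.81, 13.4, 73.1 and 31.4 CPM in WB1P mice and 15.7, 9.26, 20.4, 65.5 and 17.7 CPM in WB1P-Myc mice. Every CD26- CAF sum was thus below every CD26- NF sum and below every CD26+ CAF sum, while CD26+ CAFs and CD26+ NFs overlapped. The gene was lower in CD26- CAFs than in CD26- NFs, with a log2 fold change of -4.15 (SE 0.49, adjusted p = 1.36e-06, edgeR). Between CD26+ CAFs and CD26+ NFs it was -0.23 (SE 0.54, adjusted p = 0.763).

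The order of the CD26 classes for Aldh1a1 turned over between control and tumor mice. Its level was lower in the CD26+ sort in 3 of 3 control mice and higher in it in 9 of 9 tumor mice with both classes. The log2 fold change of CD26+ over CD26- was 2.87 in CAFs (SE 0.41, adjusted p = 8.04e-06) and -1.05 in NFs (SE 0.68, adjusted p = 0.576, not called). The difference between these was 3.92 (SE 0.82, adjusted p = 0.0108, edgeR), and Aldh1a1 was the 1 of 9 genes called for it, where 2.11% of all genes were. This difference was no longer called when any one of the control mice was left out (adjusted p up to 0.102) or with WB1P-Myc as the tumor mice alone (adjusted p = 0.0725), and with mouse as a block it was 3.72 (adjusted p = 0.0016).

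Aldh1a7, the neighbor of Aldh1a1 on chromosome 19, was at 0 to 0.73 CPM and did not pass the filter. Of the 2493 stretches of 54 bases in the Aldh1a1 transcripts, the read length, 131 (5.25%) also occur in Aldh1a7, and none occur in Aldh1a2 or Aldh1a3.

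Aldh1a2 had 1.85, 5.84 and 0.894 CPM in CD26- NFs and 0.832, 0.151 and 0.0644 CPM in CD26+ NFs. The levels in CD26- CAFs were 82.3, 141, 243, 157 and 75.0 CPM in WB1P mice and 61.3, 164, 80.5, 168 and 27.1 CPM in WB1P-Myc mice. Those in CD26+ CAFs were 22.1, 36.2, 28.7 and 13.4 CPM in WB1P mice and 10.5, 22.1, 40.3, 7.32 and 10.8 CPM in WB1P-Myc mice. Each CAF sum exceeded each NF sum of its CD26 class, by log2 fold changes of 5.37 in CD26- cells (SE 0.81, adjusted p = 2.36e-05) and 5.96 in CD26+ cells (SE 0.92, adjusted p = 5.14e-05). The latter rests on CD26+ NF sums of 21, 4 and 2 reads, and was 5.44 to 7.58 in 21 other settings.

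Within tumors Aldh1a2 was lower in the CD26+ sort of all 9 mice, with a log2 fold change of -2.48 (SE 0.43, adjusted p = 7.32e-05). It was -2.49 in WB1P and -2.47 in WB1P-Myc mice fitted alone. In NFs it was also lower in the CD26+ sort of 3 of 3 mice, at -3.07 (SE 0.95, adjusted p = 0.0766, not called). With mouse as a block this became -2.94 with an adjusted p of 0.0419, and DESeq2 gave an adjusted p of 0.00347. It was called in 3 of 20 other settings, with values of -4.94 to -1.68 and an adjusted p of up to 0.852. The value in NFs also rests on the few reads of CD26+ NFs.

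Aldh1a3 had 2.32, 9.17 and 2.45 CPM in CD26- NFs and 121, 378 and 232 CPM in CD26+ NFs. Among CD26- CAFs, Aldh1a3 had 46.3, 22.4, 90.2, 8.16 and 11.7 CPM in WB1P mice and 20.9, 15.4, 36.1, 39.3 and 8.50 CPM in WB1P-Myc mice. Among CD26+ CAFs, it had 345, 224, 188 and 241 CPM in WB1P mice and 268, 477, 283, 290 and 193 CPM in WB1P-Myc mice. No CD26- sum reached the level of any CD26+ sum, whatever the treatment. The log2 fold change of CD26+ over CD26- was 5.71 in NFs (SE 0.85, adjusted p = 0.000194) and 3.23 in CAFs (SE 0.42, adjusted p = 1.99e-06).

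Aldh1a3 rose in CD26- CAFs against CD26- NFs, by 2.66 (SE 0.68, adjusted p = 0.00352), although the highest NF sum lay within the range of the CAFs. In CD26+ cells the change was 0.17 (SE 0.57, adjusted p = 0.828). The difference of the CD26 contrast between CAFs and NFs was -2.48 (SE 0.83, adjusted p = 0.136, not called). DESeq2 called it (adjusted p = 0.0374), as did edgeR with single libraries as units (adjusted p = 0.00601). The latter counts the libraries of one mouse and class as independent, so that it is not a test over mice.

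**Figure D1:**
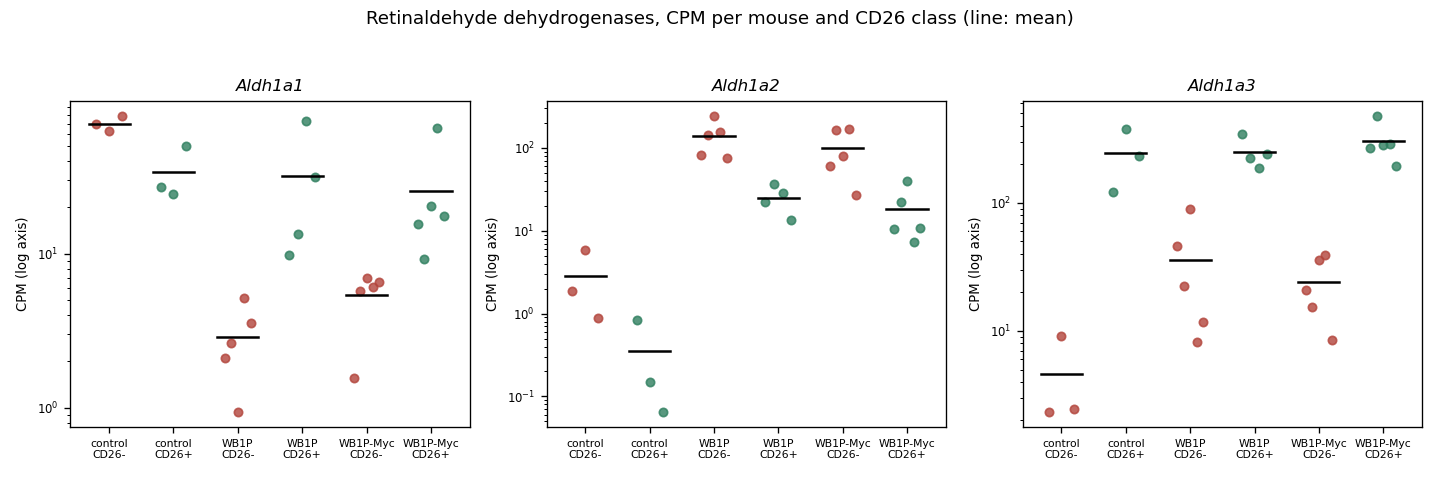
CPM of Aldh1a1, Aldh1a2 and Aldh1a3 (vertical log axis) in each mouse and CD26 class, with CD26- in red and CD26+ in green, 1 point per mouse and a black line at the group mean (n = 3 control, 5 and 4 WB1P, 5 and 5 WB1P-Myc). Aldh1a1 is lowest in CD26- CAFs, Aldh1a2 is at 27.1 to 243 CPM in CD26- CAFs against 0.894 to 5.84 CPM in CD26- NFs, and Aldh1a3 is above 100 CPM in the CD26+ groups only.

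To compare the 3 transcripts with each other, CPM was divided by the exon length of each gene (RPKM). Aldh1a1 held 86.4% ± 11.4 of the summed RPKM of the 3 genes in CD26- NFs (SD, n = 3), and was the highest of them in 3 of 3 sums. Aldh1a2 held 86.7% ± 6.63 in CD26- CAFs (n = 10) and led in 10 of 10. Aldh1a3 held 86.4% ± 6.81 in CD26+ NFs (n = 3) and 79.3% ± 9.53 in CD26+ CAFs (n = 9), and led in all of these sums. The summed RPKM was 16.4 ± 0.967 in CD26- NFs, 59.7 ± 27.5 in CD26+ NFs, 60.2 ± 32.1 in CD26- CAFs and 75.6 ± 18.5 in CD26+ CAFs. The ranges of the latter 3 groups overlapped, and that of CD26- CAFs (15.2 to 127) also included the CD26- NFs.

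**Figure D2:**
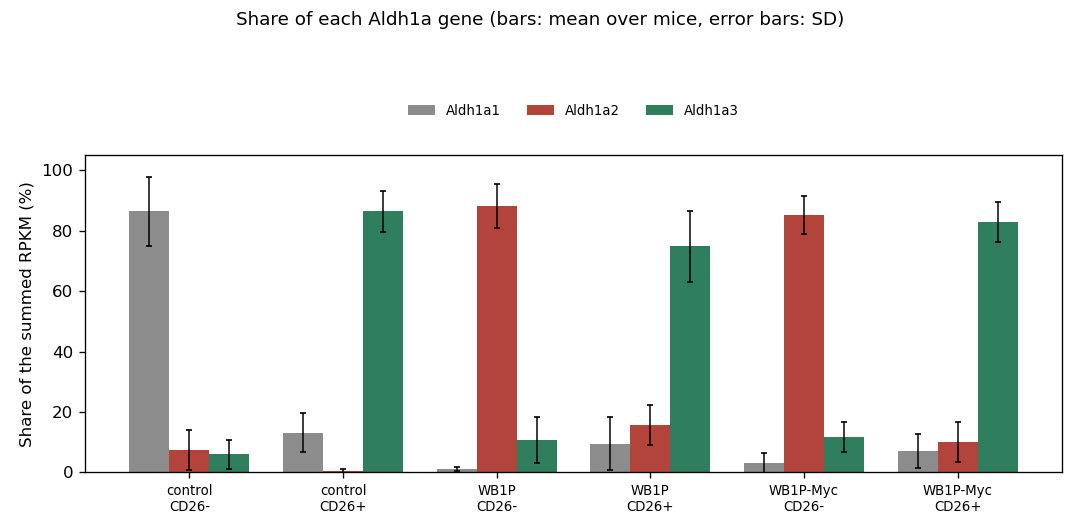
Share of the summed RPKM of Aldh1a1, Aldh1a2 and Aldh1a3 held by each gene (vertical axis, percent) in the 6 groups of sums, with bars at the mean over mice and error bars of 1 SD. The leading gene is Aldh1a1 in CD26- NFs (86.4%), Aldh1a2 in CD26- CAFs of both models (88.3% in WB1P and 85.2% in WB1P-Myc), and Aldh1a3 in the 3 CD26+ groups (86.4%, 74.8% and 82.8%).

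Markers of other cell types were read beside these levels. Pericyte markers (Rgs5, Cspg4, Mcam, Notch3, Abcc9 and Kcnj8, all 6 detected) summed to 1822 to 9067 CPM in CD26- CAFs, against 155 to 393 CPM in CD26+ CAFs, 203 to 370 CPM in CD26- NFs and 167 to 189 CPM in CD26+ NFs. Rgs5 alone had 577 to 4157 CPM in CD26- CAFs and 1.59 to 11.3 CPM in CD26+ CAFs. Their part in the levels of CD26- CAFs was not tested.

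Of 5 mesothelial markers, Wt1 had 6.93 to 46.0 CPM in CAFs and at most 1.47 CPM in NFs. It was thus higher in CAFs, as Aldh1a2 was. Within CAFs, the 5 markers summed to a median of 33.7 (CD26-) or 29.6 (CD26+) CPM, with overlapping ranges. The median of Aldh1a2 was lower in the CD26+ class, at 22.1 against 111.8 CPM. The part of these markers in the levels of Aldh1a2 was not tested. The other markers of this list were at or near 0. Msln had at most 2.88 CPM, Upk1b at most 0.536 CPM, Upk3b at most 0.547 CPM and Lrrn4 at most 0.145 CPM. All 6 endothelial markers (Pecam1, Cdh5, Kdr, Tek, Emcn and Vwf) were detected. Their sum was higher in the CD26+ class, as Aldh1a3 was. It was at 193 to 520 CPM in CD26+ and 46.7 to 68.2 CPM in CD26- NFs, and at 72.6 to 195 CPM in CD26+ and 19.4 to 79.4 CPM in CD26- CAFs. From NFs to CAFs the median of this sum fell from 68.1 to 25.2 CPM in CD26- cells, where Aldh1a3 rose. In CD26+ cells it fell from 343 to 130 CPM, where no change of Aldh1a3 was called. Among the 6, Tek was higher in CD26+ NFs, at 153 to 447 CPM against 14.3 to 22.9 CPM in CD26- NFs, whereas Pecam1 had 8.32 to 9.82 CPM and 8.01 to 14.2 CPM. The part of these markers in the levels of Aldh1a3 was not tested.

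The 7 immune markers, all detected, summed to 19.4 to 25.1 CPM in CD26- and 18.4 to 31.3 CPM in CD26+ NFs. In WB1P CAFs they summed to 13.2 to 60.9 CPM in the CD26- and 60.9 to 146 CPM in the CD26+ class, and in WB1P-Myc CAFs to 23.0 to 78.3 CPM and 21.6 to 249.8 CPM. They were thus higher in the CD26+ class of WB1P mice, as Rbp4 and Rarres2 described further on were, and their part was not tested. The epithelial list summed to at most 237 CPM and the Schwann cell list to at most 63.9 CPM.

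Rbp4, the plasma carrier of retinol (ENSMUSG00000024990, chromosome 19, 38116629 to 38125281), had 25.4, 40.9 and 22.1 CPM in CD26- NFs and 24.2, 16.2 and 18.0 CPM in CD26+ NFs. The range was 7.43 to 33.5 CPM in CD26- CAFs (median 19.2, n = 10) and 24.8 to 119 CPM in CD26+ CAFs (median 38.8, n = 9). All CD26+ CAF sums lay above all CD26+ NF sums, but the lowest of them only narrowly. The log2 fold change between these was 1.40 (SE 0.47, adjusted p = 0.0223). It was no longer called without control replicate 2 or 3, without WB1P replicate 6 or with WB1P-Myc mice alone (adjusted p up to 0.0892).

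Within CAFs, Rbp4 was higher in the CD26+ sort of 8 of 9 mice, with a log2 fold change of 1.44 (SE 0.30, adjusted p = 0.000655). In NFs the value was -0.60 (SE 0.53, adjusted p = 0.766), and it was lower in the CD26+ sort of 3 of 3 mice. The difference between CAFs and NFs was 2.04 (SE 0.62, adjusted p = 0.099, not called). It was called by DESeq2 (adjusted p = 0.0269) and without WB1P-Myc replicate 13 (adjusted p = 0.0343). It was also called with single libraries as units (adjusted p = 0.00601), which is not a test over mice. The highest value, 119 CPM, belongs to WB1P replicate 6, whose CD26+ class is a single library with the lowest depth of the series, 5790599 counts. Rbp4 is also made by fat cells. All 6 adipocyte markers (Adipoq, Plin1, Lep, Cidec, Retn and Cfd) were detected in CD26- sums, where they summed to 3.37 to 15.4 CPM in NFs and 0.339 to 11.3 CPM in CAFs. In the CD26+ sums they came to 0.673 to 1.51 CPM in NFs and at most 1.00 CPM in CAFs, with Lep at 0 in the latter. They were thus lower in CD26+ NFs and, by median (0.155 against 2.17 CPM), in CD26+ CAFs. Rbp4 was lower in CD26+ NFs, which was not called, and higher in CD26+ CAFs. The part of these markers in its levels was not tested.

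Crabp1 (ENSMUSG00000032291, chromosome 9, 54764748 to 54773110), which binds retinoic acid in the cytosol, was called between the CD26 classes of CAFs and not between CAFs and NFs. It had 223, 37.2 and 142 CPM in CD26- NFs and 56.1, 1.28 and 19.7 CPM in CD26+ NFs. In CD26- CAFs it had 34.3 to 181 CPM (median 108.5, n = 10) and in CD26+ CAFs 5.33 to 52.9 CPM (median 21.7, n = 9). It was lower in the CD26+ sort of all 12 mice with both classes, but the ranges of the classes overlapped.

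The log2 fold change of Crabp1 between CD26+ and CD26- cells was -2.47 in CAFs (SE 0.51, adjusted p = 0.000501) and -2.39 in NFs (SE 0.88, adjusted p = 0.16, not called). With mouse as a block the value in NFs was -3.04 with an adjusted p of 0.0038. Between CAFs and NFs it was -0.23 in CD26- cells (SE 0.66, adjusted p = 0.803) and -0.31 in CD26+ cells (SE 0.68, adjusted p = 0.739). With errors of this size, changes of about 1 log2 unit were not detectable.

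Crabp2 (ENSMUSG00000004885, chromosome 3, 87948666 to 87953376), which delivers retinoic acid to its nuclear receptors, was called between CAFs and NFs in both classes. It had 1.88, 4.02 and 3.41 CPM in CD26- NFs and 1.86, 2.04 and 1.74 CPM in CD26+ NFs. In CD26- CAFs it had 3.09 to 14.7 CPM (median 10.1, n = 10) and in CD26+ CAFs 2.35 to 12.7 CPM (median 6.02, n = 9). All CD26+ CAF sums were above the CD26+ NF sums, while 2 WB1P-Myc mice (replicates 10 and 12) lay within the CD26- NF range.

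The log2 fold change of Crabp2 between CAFs and NFs was 1.64 in CD26- cells (SE 0.47, adjusted p = 0.00767) and 1.80 in CD26+ cells (SE 0.48, adjusted p = 0.00536). Without control replicate 1 the former was no longer called (adjusted p = 0.0586). Between the CD26 classes it was -0.56 in CAFs (SE 0.30, adjusted p = 0.138) and -0.72 in NFs (SE 0.54, adjusted p = 0.671). Per length, Crabp1 was the more abundant of the pair, with 143 ± 61.4 RPKM against 7.35 ± 3.12 RPKM for Crabp2 in CD26- CAFs (SD, n = 10).

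Rarb, the receptor gene with a promoter window shown above (ENSMUSG00000017491, chromosome 14, 16430839 to 16819156), was the lowest of the 9 genes per length in CD26+ CAFs, at 0.574 ± 0.247 RPKM. It had 4.67, 7.82 and 4.14 CPM in CD26- NFs and 6.22, 13.3 and 9.08 CPM in CD26+ NFs. In CD26- CAFs it had 2.37 to 8.80 CPM (median 4.27, n = 10) and in CD26+ CAFs 1.13 to 5.36 CPM (median 3.22, n = 9). Every CD26+ CAF sum lay below every CD26+ NF sum, and the CD26- groups overlapped.

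Rarb fell in CD26+ CAFs against CD26+ NFs, with a log2 fold change of -1.62 (SE 0.37, adjusted p = 0.00154). In CD26- cells it was -0.28 (SE 0.38, adjusted p = 0.574). Between CD26+ and CD26- cells it was 0.78 in NFs (SE 0.48, adjusted p = 0.538) and -0.56 in CAFs (SE 0.28, adjusted p = 0.115). With mouse as a block the value in CAFs was -0.64 with an adjusted p of 0.00346, and the difference of CAFs from NFs was -1.41 with an adjusted p of 0.0119, against -1.34 (SE 0.55, adjusted p = 0.264) without it.

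Rarres2 (ENSMUSG00000009281, chromosome 6, 48569696 to 48572789) encodes chemerin, a secreted chemoattractant first known as a product of a retinoid-responsive gene. It had 256, 572 and 244 CPM in CD26- NFs and 290, 415 and 321 CPM in CD26+ NFs. In CD26- CAFs it had 138, 328, 116, 162 and 213 CPM in WB1P mice and 206, 563, 251, 207 and 743 CPM in WB1P-Myc mice, and in CD26+ CAFs of both models 394 to 869 CPM (median 574, n = 9). The CD26 classes did not overlap in WB1P mice and did in WB1P-Myc mice.

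Rarres2 was higher in the CD26+ sort of 8 of 9 tumor mice, with a log2 fold change of 1.03 (SE 0.26, adjusted p = 0.00275). It was 1.40 in WB1P mice (adjusted p = 0.00758) and 0.65 in WB1P-Myc mice (adjusted p = 0.209) fitted alone. In NFs it was -0.06 (SE 0.45, adjusted p = 0.987). No change between CAFs and NFs was called, at -0.38 in CD26- cells (SE 0.35, adjusted p = 0.405) and 0.71 in CD26+ cells (SE 0.38, adjusted p = 0.143).

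Cyp26b1 (ENSMUSG00000063415, chromosome 6, 84571414 to 84593908), which hydroxylates retinoic acid for its removal, had 31.4, 49.3 and 7.95 CPM in CD26- NFs and 14.9, 12.9 and 6.99 CPM in CD26+ NFs. In CD26- CAFs it had 23.1 to 116 CPM (median 36.1, n = 10) and in CD26+ CAFs 8.51 to 48.4 CPM (median 14.5, n = 9). The groups overlapped in every comparison. It was lower in the CD26+ sort of 7 of 9 tumor mice and 3 of 3 control mice.

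The log2 fold change of Cyp26b1 between CD26+ and CD26- CAFs was -1.10 (SE 0.39, adjusted p = 0.0305), and in NFs it was -1.35 (SE 0.70, adjusted p = 0.403). The former was lost in 7 of 22 other settings, among them either model alone and single mice left out (WB1P replicates 4, 5 and 8 and WB1P-Myc replicates 10 and 12), with an adjusted p of up to 0.205. With mouse as a block it was -0.95 with an adjusted p of 0.00938. Between CAFs and NFs it was 0.61 in CD26- cells (SE 0.57, adjusted p = 0.401) and 0.87 in CD26+ cells (SE 0.59, adjusted p = 0.247).

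**Figure D3:**
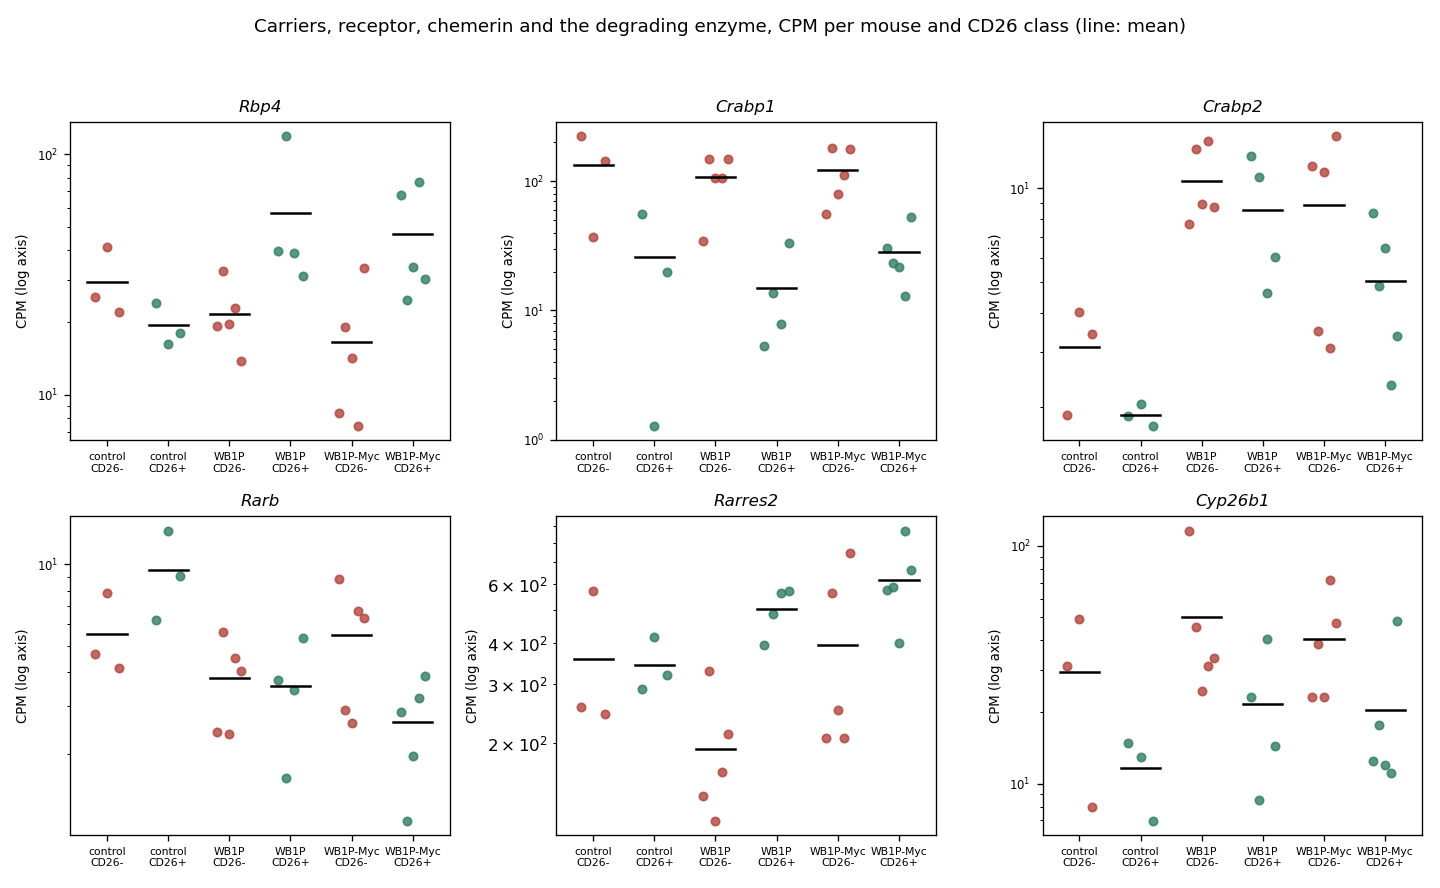
CPM of Rbp4, Crabp1, Crabp2, Rarb, Rarres2 and Cyp26b1 (vertical log axis) in each mouse and CD26 class, with CD26- in red and CD26+ in green, 1 point per mouse and a black line at the group mean. Crabp1 is lower in the CD26+ group of each treatment, Crabp2 is at 1.74 to 2.04 CPM in CD26+ NFs and 2.35 to 12.7 CPM in CD26+ CAFs, and Rarb is lower in CD26+ CAFs than in CD26+ NFs.

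Counted over the 9 genes, CD26 separated more of them in tumors than in control mice. Between CD26+ and CD26- CAFs 7 of 9 genes were called, of which Aldh1a1, Aldh1a3, Rbp4 and Rarres2 were higher and Aldh1a2, Crabp1 and Cyp26b1 lower in CD26+ CAFs. Of all genes tested, 39.0% were called in this comparison, 19.1% as higher and 19.9% as lower. With the limit on the fold change 4 of 9 passed (all genes 7.61%). In NFs 1 of 9 genes was called (all genes 4.17%, higher 2.67% and lower 1.49%), namely Aldh1a3, which also passed the limit (all genes 2.18%). With mouse as a block 3 of 9 were called in NFs, the other two being Aldh1a2 and Crabp1. The difference between the CAF and NF contrasts was called for Aldh1a1 only, so that the larger count in CAFs, with 10 and 9 sums against 3 and 3, is not a test that the other genes differ.

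Between CAFs and NFs, 4 of 9 genes were called in CD26- cells (all genes 41.3%, higher 20.4% and lower 21.0%) and 4 of 9 in CD26+ cells (all genes 41.2%, higher 20.1% and lower 21.1%). In CD26- cells these were Aldh1a2, Aldh1a3 and Crabp2, which rose, and Aldh1a1, which fell. In CD26+ cells Aldh1a2, Crabp2 and Rbp4 rose and Rarb fell. With the limit on the fold change, 3 of 9 passed in CD26- cells (all genes 11.3%) and 1 of 9, Aldh1a2, in CD26+ cells (all genes 8.00%). The shares called without the limit are near the background. The median log2 fold change of the 9 genes was -0.23 in CD26- and 0.71 in CD26+ cells, and that of all genes was 0.01 and -0.00.

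**Figure D4:**
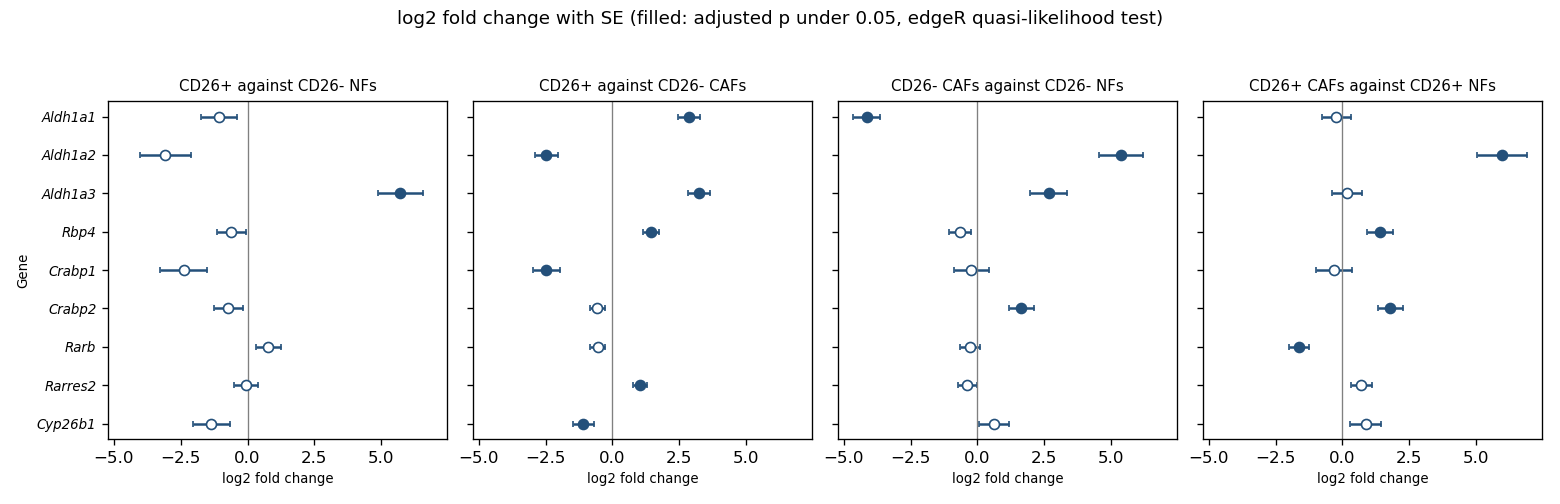
Log2 fold change (horizontal axis) of each of the 9 genes (vertical axis) in 4 comparisons, with bars of 1 SE and filled points where the adjusted p was under 0.05 in edgeR's quasi-likelihood test. Filled points number 1, 7, 4 and 4 from left to right, Aldh1a2 has the largest rise in both comparisons of CAFs with NFs (5.37 and 5.96), and Aldh1a1 has a value on opposite sides of 0 in NFs (-1.05) and CAFs (2.87). The 5.96 of Aldh1a2 rests on CD26+ NF sums of 2 to 21 reads.

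Myc in the donor tissue gave no call among the 9 genes. Between WB1P-Myc and WB1P mice 0 of 9 were called in CD26- CAFs by edgeR (all genes 0.512%, 1 of 9 at an unadjusted p under 0.05) and 0 of 9 in CD26+ CAFs (all genes 0.00%, 0 of 9 unadjusted). DESeq2 also called 0 of 9 in both. The largest value was that of Rarres2 in CD26- CAFs, 1.04 (SE 0.35, adjusted p = 0.175). It was called when single libraries were the units (adjusted p = 0.00931), which is not a test over mice. The SE of the 9 differences was 0.35 to 0.71 log2 units, with 5 mice or fewer a group. Even the 1.04 of Rarres2, which had an SE of 0.35, was not called. Changes of about 1 log2 unit could thus be missed.

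En1 lineage likewise gave no call. Between En1+ and double- CAFs 0 of 9 genes were called (all genes 0.00%, 1 of 9 unadjusted, DESeq2 0 of 9), and between double+ and CD26+ CAFs 0 of 9 (all genes 0.0193%, 0 of 9 unadjusted, DESeq2 0 of 9). Aldh1a2 had 125 ± 66.3 CPM in En1+ (SD, n = 8) and 131 ± 70.5 CPM in double- CAFs (n = 9), with a log2 fold change of -0.08 (SE 0.43). Aldh1a3 had 259 ± 64.2 CPM in CD26+ (n = 6) and 269 ± 87.2 CPM in double+ CAFs (n = 9), with 0.03 (SE 0.48). The one gene with an unadjusted p under 0.05 was Crabp2, at -0.86 (SE 0.35, adjusted p = 0.992) in En1+ against double- CAFs.

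The rest of the pathway was read from a list of 45 genes for retinol uptake, carotene cleavage, the step between retinol and retinaldehyde, other enzymes and receptors, retinoic acid responsive genes and chemerin receptors, of which 35 were tested. Between CD26+ and CD26- CAFs 8 of the 35 were higher and 10 lower (all genes 19.1% and 19.9%). Of 6 tested genes of retinol transport and uptake 4 were lower and 0 higher, beside these same shares of all genes, with Stra6, the receptor that takes up retinol from RBP4, at a log2 fold change of -2.36 (SE 0.54, adjusted p = 0.00146). Stra6 had 23.4 to 133.8 CPM in CD26- CAFs and 2.49 to 22.9 CPM in CD26+ CAFs, so that the carrier Rbp4 and its receptor were higher in opposite classes.

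Of 11 tested genes for the step between retinol and retinaldehyde, 6 were higher and 1 lower in CD26+ CAFs (all genes 19.1% and 19.9%). The largest change was in Dhrs9, a retinol dehydrogenase, at 2.59 (SE 0.46, adjusted p = 0.000101). Fabp5, which can carry retinoic acid to another nuclear receptor, was lower, at -1.56 (SE 0.25, adjusted p = 3.1e-05), and Rarres1, named like Rarres2 for its response to retinoids, at -2.46 (SE 0.44, adjusted p = 0.000105).

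Chemerin and its receptor genes were unevenly spread. Gpr1, which encodes a chemerin receptor, had 0 to 0.307 CPM in CD26- CAFs (at 0 in 2 of 10 sums) and 3.26 to 12.7 CPM in CD26+ CAFs, and was higher in the CD26+ sort of all 12 mice with both classes. The fitted log2 fold change was 6.12 in CAFs (SE 0.45, adjusted p = 9.39e-10) and 6.87 in NFs (SE 0.78, adjusted p = 8.54e-06), where it rests on 2 to 7 reads in each CD26- sum. Cmklr1, the gene of the other signaling receptor, had 19.0 to 147 CPM in CD26- CAFs and 17.4 to 59.5 CPM in CD26+ CAFs. It was called lower in CD26+ CAFs, at -1.17 (SE 0.29, adjusted p = 0.00282, edgeR), and so in the opposite direction to Gpr1. Ccrl2, the remaining chemerin receptor gene of the list, was not called there, at -0.77 (SE 0.32, adjusted p = 0.0599).

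In NFs 4 of the 35 genes were higher and 2 lower in CD26+ cells (all genes 2.67% and 1.49%). Dhrs9 had 0.298 to 0.804 CPM in CD26- NFs and 6.97 to 43.7 CPM in CD26+ NFs, a log2 fold change of 5.34 (SE 0.97, adjusted p = 0.0017). Cd38, a gene induced by retinoic acid in myeloid cells, was lower, at -2.42 (SE 0.65, adjusted p = 0.0356).

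Between CAFs and NFs 8 of the 35 genes were higher and 5 lower in CD26- cells (all genes 20.4% and 21.0%), and 9 were higher and 6 lower in CD26+ cells (all genes 20.1% and 21.1%). In both classes the share of the 35 genes called was near that of all genes. Fabp5 rose in both, by 3.25 in CD26- cells (SE 0.43, adjusted p = 4.95e-06) and 1.70 in CD26+ cells (SE 0.39, adjusted p = 0.00188). Of the dehydrogenases that act on retinol, Adh1 (-2.50, SE 0.54, adjusted p = 0.000853) and Adh7 (-1.91, SE 0.32, adjusted p = 7.24e-05) fell in CD26- CAFs. Dhrs9 rose there by 3.15 (SE 0.84, adjusted p = 0.00486). In CD26+ CAFs Rdh10, which oxidizes retinol to retinaldehyde, rose by 1.47 (SE 0.38, adjusted p = 0.00408), as did Dhrs3, which reduces retinaldehyde, by 1.15 (SE 0.33, adjusted p = 0.00786). Rdh10 also rose in CD26- CAFs against CD26- NFs, by 0.90 (SE 0.36, adjusted p = 0.0489), where Dhrs3 was not called. Gpr1 fell in CD26+ CAFs by 1.34 on the log2 scale (SE 0.43, adjusted p = 0.0171).

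Cyp26a1, named here after its values were seen because its promoter window holds the same kind of repeat as that of Rarb, had 1 read in each CD26- NF sum and 1 to 4 reads in each CD26+ NF sum. In CAFs it had 12 to 83 reads per CD26- sum and 8 to 131 reads per CD26+ sum, that is 0.462 to 6.20 CPM and 0.46 to 5.95 CPM. Every CAF sum was above every NF sum of its class, and the gene was called in both comparisons, whereas Rarb was lower or not called.

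**Figure D5:**
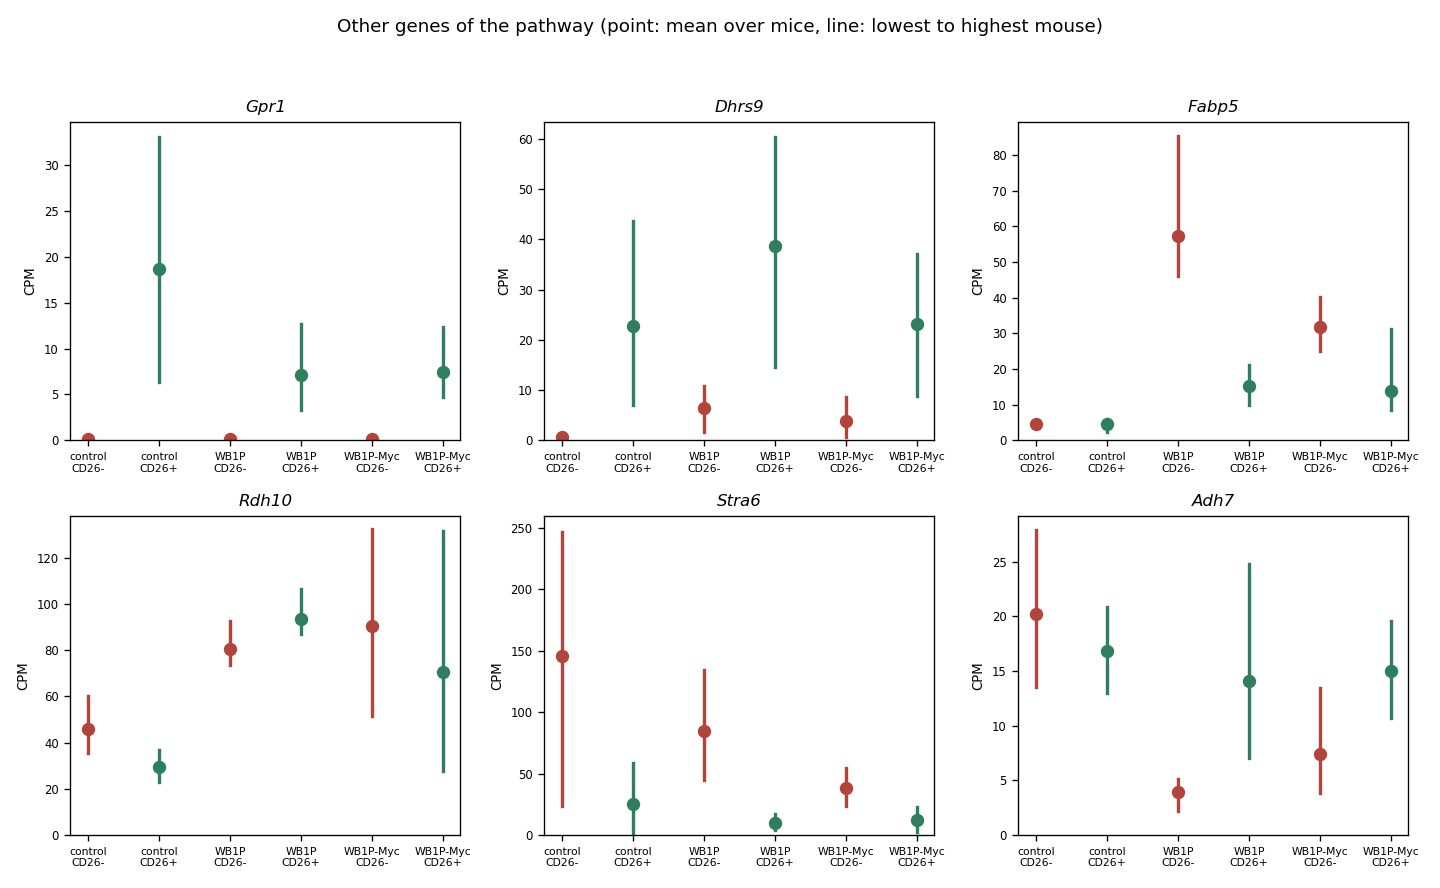
CPM (vertical linear axis from 0) of Gpr1, Dhrs9, Fabp5, Rdh10, Stra6 and Adh7 in the 6 groups of sums, with a point at the mean over mice and a line from the lowest to the highest mouse, CD26- in red and CD26+ in green. Gpr1 is at 3.26 CPM or more in the CD26+ groups and at 0.307 CPM or less in the CD26- groups, and Fabp5 is highest in CD26- CAFs, at 46.0 to 85.3 CPM in WB1P and 25.1 to 40.2 CPM in WB1P-Myc mice.

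The genes whose log2 CPM was most like that of each of the 9 genes over the 25 sums were listed as a description, since the sums are not independent. Both classes of a mouse come from that mouse, and the sums of a group share its treatment. Aldh1a2 was most like Klhl30 (Pearson's r = 0.962) and Bmpr1b (0.946). Aldh1a3 was most like Islr2 (0.955), Adgrg2 (0.944) and Duoxa1 (0.936), and Aldh1a1 most like Gulp1 (0.909), Nkain4 (0.905) and Aldh3a2 (0.898). Crabp1 was most like Sbspon (0.906), the retinol receptor gene Stra6 (0.891) and Mpzl1 (0.868).

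Rarres2 was most like Unc45bos (0.910), Fgf7 (0.904) and Gm18840 (0.890), and Rbp4 most like Gm29290 (0.851), Tmem120b (0.831) and Mt2 (0.809). Crabp2 was most like Cpxm2 (0.843), Arg1 (0.824) and Trpm6 (0.823), and Cyp26b1, with the weakest likeness, most like Tent5a (0.784), Gm12185 (0.774) and H4c14 (0.734). Rarb had no group mean of 10 CPM and was not compared. Among the 9 genes themselves the values were -0.77 for Aldh1a3 with Crabp1, -0.74 for Aldh1a1 with Aldh1a2, and 0.71 for Aldh1a2 with Crabp2.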

How the data were processed

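Stranded mRNA libraries were sequenced as paired ends, and the authors deposited raw counts of reads per gene without normalization. The submitters' processing notes name HISAT2 2.2.1 and GRCm38. The counter and annotation are not given in the sources used here, and the labels name no batch. One of 55487 lines names no gene and holds 0 counts. The coordinates of all 54 retinoid genes equal those of GENCODE M21.

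Libraries were added up within each mouse and CD26 class (25 sums, 6 groups). Genes with low counts were removed with filterByExpr, and TMM normalization, glmQLFit and glmQLFTest of edgeR 4.0.16 in R 4.3.3 were applied to all groups together, with WB1P and WB1P-Myc weighted equally in CAF means. En1 comparisons used single libraries (12 groups, 15584 genes). The SE is the fold change over the square root of F. Log2 CPM used a prior count of 2. RPKM is CPM per kilobase of merged exons. P-values of the main fit measure the spread between mice of a group, and both sums of one mouse count as independent there. In the En1 comparisons, the libraries of one mouse count as independent. With mouse as a block, the spread is that within mice. With single libraries as units, the libraries of one mouse and class also count as independent.

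The 9 genes, the pathway list and the marker lists were chosen with earlier results of these data known. Named pathway genes are those called, up to 5 per comparison by size of change with a group mean of at least 10 CPM, and levels of Cmklr1, Stra6 and Cyp26a1 were added for their role. Tests of Cmklr1 and Ccrl2 in CAFs, and of Rdh10 and Dhrs3 in CD26- cells, were added beside the genes named. For likeness, the 3 genes of highest r were named, except 1 that is not reported here.

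The labels give the mouse of each library. After subtraction of group means, the pair of sums of each of 12 mice had an r of 0.253 to 0.674 across genes (median 0.469), and mouse was used to pair the classes in an alternative. No 2 of 63 library pairs were copies. Alternatives were mouse as a block, DESeq2 1.42.0 (size factors, Wald test), all genes kept, libraries as units, only the groups compared, either tumor model alone, leaving out the mice marked 8x8 and leaving out each mouse. Counts of a few reads carry counting error only in the precision given. No library was left out.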

Additional observations from a re-analysis of the deposited data

Results flagged for a closer look

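In 5 groups of 4 or 5 mice 1 mouse stood apart from the others by its distance to the nearest of them, where 36 groups were examined and chance flags about 1 in 20 (1.8 of 36). Aldh1a1 had 1.55 CPM in CD26- CAFs of WB1P-Myc replicate 9 (nearest mouse 5.71) and 65.5 CPM in CD26+ CAFs of WB1P-Myc replicate 12 (nearest 20.4). Rbp4 had 118.9 CPM in CD26+ CAFs of WB1P replicate 6 (nearest 39.7). Cyp26b1 had 115.6 CPM in CD26- CAFs of WB1P replicate 4 (nearest 45.8) and 48.4 CPM in CD26+ CAFs of WB1P-Myc replicate 13 (nearest 17.7). The sums named here of WB1P-Myc replicate 9, WB1P replicate 6 and WB1P replicate 4 are single libraries. Replicates 12 and 13 are the mice marked 8x8. The CD26 difference of Aldh1a1 in CAFs minus that in NFs, 3.92 on the log2 scale (adjusted p = 0.0108, edgeR), was flagged as an effect that differed between control and tumor mice, and was shown by 3 of 3 control and 9 of 9 tumor mice.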

How the results depend on the processing

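Of 859 values of 41 results for single genes among the 9 under other settings, 815 kept their direction and their side of the threshold, 17 became called, 17 were no longer called and 10 turned their sign, all of the last uncalled. Counts called among the 9 genes were within 1.5 times for CD26+ against CD26- CAFs (5 to 8, against 7), for CD26- CAFs against NFs (3 to 4, against 4), for CD26+ CAFs against NFs (3 to 5, against 4), and for both En1 comparisons and WB1P-Myc against WB1P CD26+ CAFs (0 throughout).

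Between CD26+ and CD26- NFs 3 of 9 were called with DESeq2's Wald test, with mouse as a factor (replicate block) and with single libraries as units, against 1. Between WB1P-Myc and WB1P CD26- CAFs 1 was called with single libraries, against 0. For the difference of the CD26 contrasts, 3 were called with DESeq2's Wald test, 2 with the replicate block, 4 with single libraries and 0 with WB1P-Myc CAFs only, against 1. Leaving out 1 mouse gave 0 to 2, with 0 without control replicate 1, 2 or 3 and 2 without WB1P-Myc replicate 13.

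Of the 35 other pathway genes, the replicate block called 12 and the fit of only the groups compared 3 between CD26+ and CD26- NFs, against 6, and leaving out 1 mouse gave 2 to 6 (3 without control replicate 1 or 2, and 2 without control replicate 3). Between CD26+ and CD26- CAFs 8 were called with WB1P-Myc CAFs only, against 18. Between CD26+ CAFs and NFs 9 were called without the mice marked 8x8 and 8 with WB1P CAFs only, against 15, and leaving out 1 mouse gave 8 to 15 (8 without control replicate 2 and 9 without control replicate 3). Between WB1P-Myc and WB1P CD26- CAFs 6 were called with single libraries, against 0. For the difference of the CD26 contrasts 2 were called with DESeq2's Wald test, 4 with the replicate block, 1 without the mice marked 8x8 and 7 with single libraries, against 0, and leaving out 1 mouse gave 0 to 1. The cause of these moves was not tested.

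Values that turned their sign did so mostly without a control mouse. Leaving out 1 mouse gave -0.63 (without WB1P replicate 7) to 0.18 (control replicate 3) for Aldh1a1 and -0.16 (control replicate 1) to 0.65 (control replicate 2) for Aldh1a3 between CD26+ CAFs and NFs. It gave -0.65 to 0.36 in CD26- and -0.85 to 0.97 in CD26+ CAFs against NFs for Crabp1 (control replicates 2 and 1), and -0.45 to 0.065 for Rarb and -0.59 to 0.16 for Rarres2 in CD26- CAFs against NFs (control replicates 3 and 2). For Rarres2 between the classes of NFs it gave -0.25 to 0.29 (control replicates 3 and 2), and the replicate block 0.038. With WB1P-Myc CAFs only, Crabp1 was at 0.14 in CD26+ and Rarres2 at 0.14 in CD26- CAFs against NFs.

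Over all genes, calls ranged from 175 to 2143 between the classes of NFs (main 692), from 3326 to 8208 between those of CAFs (6471), from 6 to 1068 between WB1P-Myc and WB1P CD26- CAFs (85), from 74 to 1516 for the difference of the contrasts (351), and up to 9 and 11 for WB1P-Myc against WB1P CD26+ CAFs and En1+ against double- CAFs (0 each). They ranged from 1 to 3 for double+ against CD26+ CAFs (3). No paired analysis was possible because mice are nested in treatment, for CAFs against NFs and WB1P-Myc against WB1P. The replicate block changed no call of the 9 genes beside those given here and in the report. With 3 control mice, NF comparisons have the least precision.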
